A study of Mus musculus with 4 samples.

Results

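Retinoid genes were examined for binding of the Isl1-Lhx3 fusion by assigning each peak of a Flag ChIP-seq list to its nearest protein-coding transcription start. The genes were Stra6, Aldh1a2, Crabp1, Crabp2, Rara, Rarb, Rarg, Cyp26a1 and Cyp26b1, named for their roles in the vitamin A pathway and chosen with earlier results of these data known. Of 2454 nuclear peaks, 2 were assigned to them: 1 to Stra6 and 1 to Aldh1a2, while 7 of the 9 genes had none.

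The cells were mouse iMN-ESCs, a derivative of the A172LoxP embryonic stem cell line with a Flag-tagged Isl1-Lhx3 fusion placed under a doxycycline (Dox) switch. Isl1 and Lhx3 are DNA-binding proteins of the LIM-homeodomain class that direct motor neuron fate. Embryoid bodies of both groups received 0.5 µM retinoic acid alone for 2 days and stayed in retinoic acid for 4 more days, with Dox at 2 µg/mL (n = 2 libraries) or without Dox (n = 2 libraries). Both groups also had LIF, a cytokine, for the 16 hours before harvest. The fusion is a forced, tagged protein that stands in for the separate Isl1 and Lhx3 proteins, and the labels do not say whether the line was 1 clone. All cells were thus exposed to the ligand of the pathway described here, and no group without retinoic acid was analysed here.

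The deposited list gives each peak 1 ChIP score, 1 background score and 1 tag count per region, with no value per library. The depth of each library and the spread between the sets are therefore unknown, no difference between with Dox and without Dox was tested, and every value below is a description of 1 list. The list holds no expression values, so the labelled cell type was not checked against its markers. The median ChIP score of all nuclear peaks was 40.95 (lowest 29.98, highest 321.18), and regions held 10 to 491 tags with a median of 30.

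Retinoic acid is made from vitamin A in steps. Retinol enters the cell through the membrane receptor STRA6, is oxidised to retinal and then, by retinaldehyde dehydrogenases such as ALDH1A2, to retinoic acid. The cellular binding proteins CRABP1 and CRABP2 carry it, the nuclear receptors RARA, RARB and RARG bind it together with RXR partners at response elements in DNA, and the CYP26 enzymes break it down. In the embryonic spinal cord this signal patterns neural progenitors, and ALDH1A2 in early motor neurons is a known local source of it.

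The peaks that carry the account are shown here as 200 bp of the plus strand of mm9 centred on the maximum. Capitals mark each TAAT core, read on either strand, the short sequence that homeodomain proteins contact. The first is the Stra6 peak (chr9:57908873-57909072) and the second the Aldh1a2 peak (chr9:71179438-71179637). The others (chr19:37956123-37956322 and chr19:37952385-37952584) are the strongest peaks between Cyp26a1 and Myof, which the nearest-start rule gave to Myof.
Stra6: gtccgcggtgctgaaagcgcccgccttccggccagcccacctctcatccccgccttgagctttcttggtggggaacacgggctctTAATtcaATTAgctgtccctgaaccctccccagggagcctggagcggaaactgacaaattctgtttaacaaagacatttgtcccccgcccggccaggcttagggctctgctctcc
Aldh1a2: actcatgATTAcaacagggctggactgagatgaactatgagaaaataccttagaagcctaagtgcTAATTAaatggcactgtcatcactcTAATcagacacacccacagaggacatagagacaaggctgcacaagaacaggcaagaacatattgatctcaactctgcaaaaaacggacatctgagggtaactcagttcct
Cyp26a1-Myof, score 129.01: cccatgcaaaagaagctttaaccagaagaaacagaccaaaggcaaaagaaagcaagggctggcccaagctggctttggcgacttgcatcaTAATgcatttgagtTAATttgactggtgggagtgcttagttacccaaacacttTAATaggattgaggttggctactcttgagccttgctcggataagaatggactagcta
Cyp26a1-Myof, score 108.4: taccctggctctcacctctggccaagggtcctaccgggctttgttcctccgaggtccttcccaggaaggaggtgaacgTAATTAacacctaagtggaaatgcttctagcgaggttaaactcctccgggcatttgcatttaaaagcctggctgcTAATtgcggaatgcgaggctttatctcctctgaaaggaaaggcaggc

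Of the 9 retinoid genes, 2 had an assigned peak (22.2%), where 1826 of all 22367 protein-coding genes did (8.16%). These were a gene of uptake and a gene of synthesis. No carrier gene, no receptor gene and no breakdown gene had one. With so few genes, and with earlier results known when they were chosen, the count says nothing about the pathway as a whole. Genes also differ in the sequence that can give them a peak: the territory nearest to its starts was 158.1 kb for Aldh1a2 and 50.5 kb for Stra6, against a median of 45.6 kb for protein-coding genes. With peaks limited to 100 kb from a start, only Stra6 was left, and the share over all protein-coding genes was 6.91%.

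Stra6, the uptake receptor, had the stronger of the assigned peaks. Its ChIP score was 91.8, against a background score of 4.4, with 74 tags (58.1 to 92.9, 95% Poisson interval, counting error only) in a region of 680 bp. The score ranked 155 among the 2454 peaks, shared by 5 peaks in all, and 171 of 2301 regions (7.43%) held more tags. The background score was 4.79% of the ChIP score, above the median over all peaks (0.722%) and just above the upper quartile (4.59%). The Stra6 peak was thus high in score and also carried more background than most peaks.

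The Stra6 start nearest to this peak was that of a noncoding transcript, and the starts of the coding transcripts lay further away. The 500 bp window (chr9:57908723-57909222) lay in an intron of Ccdc33, a coiled-coil gene on the opposite strand that overlaps Stra6. The maximum was 2.62 kb upstream of the first annotated Stra6 start, which belongs to a transcript annotated as a retained intron. The first starts of protein-coding Stra6 transcripts lay 18.1 and 18.2 kb away. The remaining 9 of its 12 starts lay from 67.9 to 73.6 kb away. The next protein-coding gene by any start was Ccdc33, at 19.1 kb through a noncoding transcript, and its nearest start of a protein-coding transcript was 41.1 kb away. The peak kept its assignment to Stra6 with protein-coding transcripts alone and with 1 start per gene. By the nearest gene body, an assignment added after the data were seen, it passed to Ccdc33.

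Aldh1a2, the retinaldehyde dehydrogenase of early embryos, had a peak near the bottom of the list. Its ChIP score was 30.51 and its background score 0.01, with 14 tags (7.65 to 23.5, 95% Poisson interval) in a region of 250 bp, where the median region was 467 bp wide. The score was shared by 39 peaks, and 59 peaks had a lower one. Only 35 of 2301 regions (1.52%) held fewer tags. Both the score and the tag count were thus near the lowest values in the list (29.98 and 10).

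The Aldh1a2 peak was intergenic (chr9:71179288-71179787) and lay downstream of the gene. The maximum was 115.9 kb from the only annotated Aldh1a2 start and 35.5 kb past the end of the gene record. The next protein-coding gene, Grinl1a, had its nearest start 153.2 kb away. No annotated gene of any type had a nearer start than Aldh1a2. A distance above 100 kb was found at 18.5% of all nuclear peaks.

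**Figure D1:**
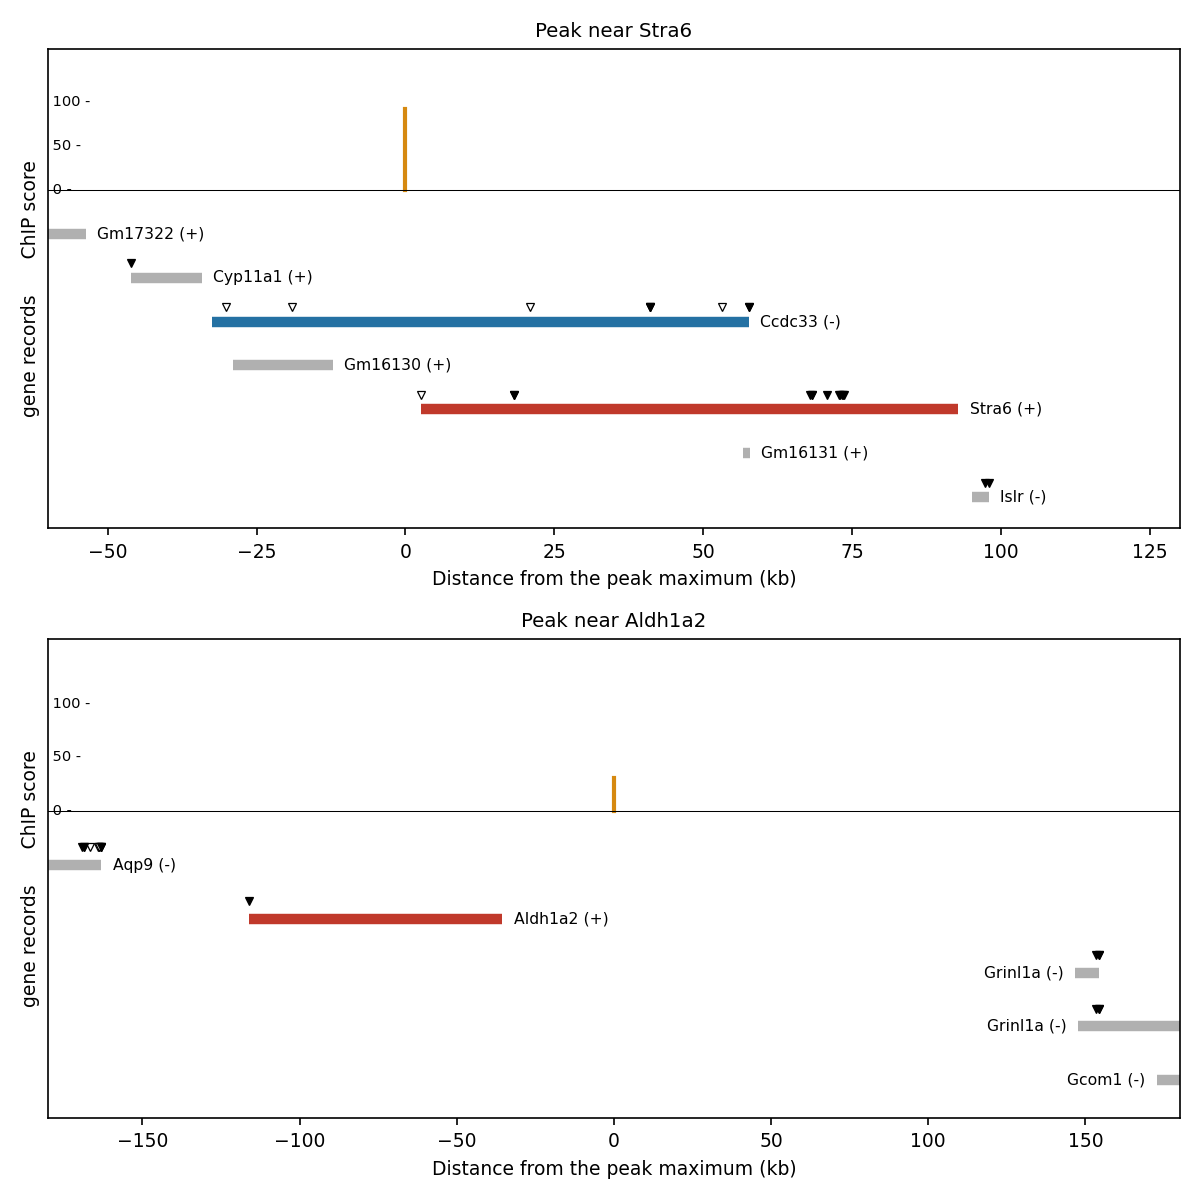
Gene records (bars, strand in brackets) and ChIP scores (orange bars, height read against the scale at the left) around the Stra6 peak and the Aldh1a2 peak, by distance from each peak maximum in kb. Filled triangles are starts of protein-coding transcripts and open triangles other starts of protein-coding genes. The Stra6 peak stands inside Ccdc33, 2.62 kb before an open triangle of Stra6, and the Aldh1a2 peak stands 35.5 kb beyond the end of Aldh1a2.

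With ChIP scores of 91.8 and 30.51, the assigned peaks lay on opposite sides of the median of the list (40.95). At both, the ChIP score was 10 or more times the background, as at 94.6% of all peaks. Their bases differed as well. GC content in 200 bp was 59.5% at Stra6 and 42.5% at Aldh1a2, against a median of 48% and quartiles of 44.5% and 51.5% over all peaks. The Stra6 window thus lay above the upper quartile and the Aldh1a2 window a little below the lower one.

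**Figure D2:**
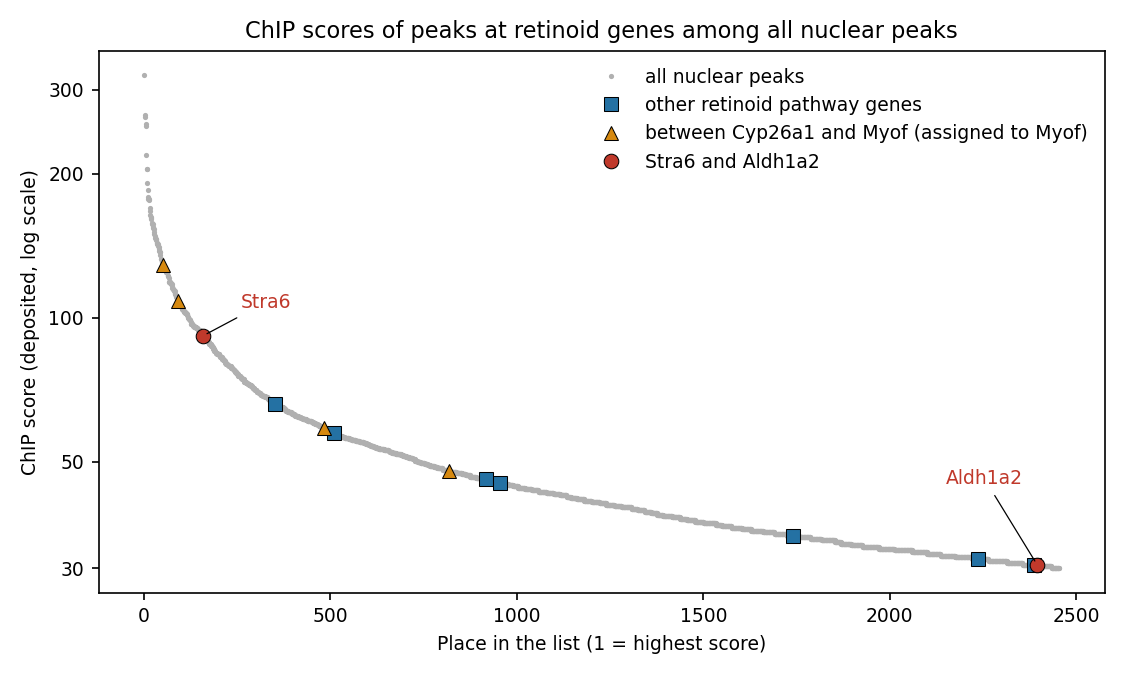
Deposited ChIP score (log scale) of all 2454 nuclear peaks against their place in the list. Stra6 (score 91.8) sits high on the curve and Aldh1a2 (30.51) at its foot, and the peaks between Cyp26a1 and Myof reach 129.01.

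Homeodomain cores lay close to both maxima, in different arrangements. In the Stra6 window a pair of cores formed TAATTCAATTA (chr9:57908958-57908968), which is TAAT and ATTA with 3 bases between, beginning 14 bases before the maximum. This spaced pair, searched on both strands and chosen after the sequence was seen, was in 63 of all peak windows (2.57%). The palindrome TAATTA, which LIM-homeodomain factors bind, was absent from the Stra6 window. The Aldh1a2 window held TAATTA beginning 34 bases before the maximum and a further TAAT beginning 9 bases before it. TAATTA was in 34.2% of all peak windows, and the single core TAAT, which TAATTA and the spaced pair contain, was in 94.2%. The nearest base of a TAAT core was 4 bases from the maximum at Stra6 and 6 at Aldh1a2, with a median of 15 over the peaks that had one. A core within 6 bases was found at 27.6% of all peaks, so such closeness was common.

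Other sites, each searched on both strands only in the spelling given here, were absent from both windows. Variant spellings, including other forms of the retinoic acid receptor half-site, were not searched, so their absence is not shown. The retinoic acid receptor half-site AGGTCA was in 16.9% of all peak windows, and its direct repeat with 5 bases between, the classic retinoic acid response element, was in 0.122%. The E-box CAGCTG was in 13.9%, the octamer ATGCAAAT in 4.24%, the STAT site TTCNNNGAA in 4.97% and ATTA followed by TAAT with 3 bases between in 4.97%. In the wider 500 bp window the Stra6 peak had AGGTCA beginning 237 bases before the maximum and CAGCTG beginning 107 bases before it. The shares above are for 200 bp windows and do not apply to these 500 bp finds, for which no share over all peaks is given.

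Among genes of breakdown, Cyp26a1 came closest to an assigned peak. Cyp26a1 encodes the main retinoic acid hydroxylase of early embryos and is itself induced by retinoic acid. Between the end of Cyp26a1 and the end of the Myof record, a stretch of 197.5 kb with no annotated gene, there were 4 peaks in 2 regions. Their ChIP scores were 129.01, 108.4, 58.88 and 47.91, so the strongest exceeded the Stra6 peak. It ranked 49 in the list, with a score shared by 2 peaks in all. Background scores were 0, 0, 0 and 0.62 in the same order, and 31.1% of all peaks had a background score of 0.

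These 4 peaks lay from 180.2 to 184.1 kb downstream of the Cyp26a1 start. The start of Myof, the gene of the membrane protein myoferlin, lay 161.7 to 165.6 kb away on the far side of that gene. Myof was nearer than Cyp26a1 by 14.6 kb at the peak of score 108.4 and by 21.7 to 22.4 kb at the others. Cyp26a1 was not the next nearest gene after Myof. That was I830134H01Rik, on the far side of Myof, with its start 172.6 to 176.5 kb from the peaks. Cep55, with its first start 357.2 kb from the Cyp26a1 start, was also nearer to all of them than Cyp26a1. The peaks also lay nearer to the Myof gene body, 17.1 to 21.0 kb past its end. The 3 peaks in the region chr19:37955822-37956924 share 127 tags (105.9 to 151.1, 95% Poisson interval), and the peak of score 108.4 had 98 tags (79.6 to 119.4). All 4 windows of 200 bp held a TAAT core, as did 94.2% of all peak windows. TAATTA was in 2, those of score 108.4 and 58.88, beside 34.2% of all peak windows. The windows of the 3 peaks in the shared region overlap in part. The list does not tell which gene, if any, these peaks act on.

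**Figure D3:**
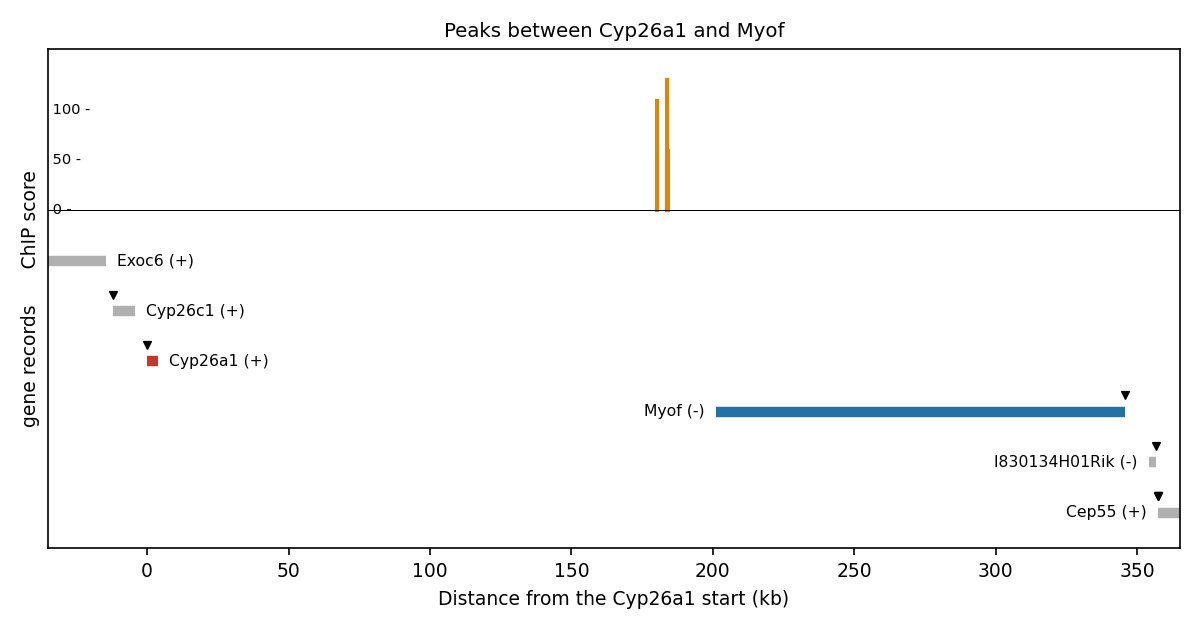
Gene records (bars, strand in brackets, filled triangles for starts of protein-coding transcripts) and peaks (orange bars, height is the ChIP score) by distance in kb from the Cyp26a1 start. All 4 peaks stand between 180.2 and 184.1 kb, before the end of Myof, whose start is at the far right of its bar.

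Cyp26b1, which encodes a second retinoic acid hydroxylase, was the furthest from any peak among the 9 retinoid genes. The nearest maximum was 1153 kb away, in an intron of Tet3, a gene of DNA demethylation, with a score of 52.99. The territory of Cyp26b1 was 307.5 kb, and 82.4% of protein-coding genes had a nearer peak.

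None of the receptor genes had an assigned peak, and their distances to the nearest peak spread widely. Rara was 92.9 kb from an intergenic peak of score 41.75 that lay 1.86 kb upstream of Rapgefl1. Rarg was 162.9 kb from a peak of score 43.09 in an intron of Eif4b, a translation initiation factor gene. Rarb was 596.8 kb from an intergenic peak of score 47.11, assigned to the distant Oxsm. Rarb had the largest territory of the 9 genes, 740.5 kb, and the list holds no peak in it. Rarg, with 30.7 kb, had less room than the median gene.

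The binding protein genes also had none. Crabp1 was 209.2 kb from an intergenic peak of score 37.47, which lay 6.92 kb upstream of the nicotinic receptor gene Chrna5 and held TAATTA. Crabp2, with a territory of 21.9 kb, was 527.2 kb from an intergenic peak of score 32.92 assigned to Lmna, the lamin A gene.

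In order of distance to the nearest peak, the genes ran Stra6 (2.62 kb), Rara, Aldh1a2 (115.9 kb), Rarg, Cyp26a1 (180.2 kb), Crabp1, Crabp2, Rarb and Cyp26b1. Their median was 180.2 kb, beside 344.5 kb over protein-coding genes, whose quartiles were 125.5 and 842.2 kb. Thus 6 of the 9 were nearer to a peak than the median gene and 3 were further. Rara was nearer to a peak than Aldh1a2 and still had none assigned, because Rapgefl1 stood between. Stra6, Cyp26a1, Crabp1, Rara and Rarg had from 4 to 6 peaks within 500 kb, Aldh1a2 had 1, and Crabp2, Rarb and Cyp26b1 had 0, with a median of 1 over protein-coding genes.

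**Figure D4:**
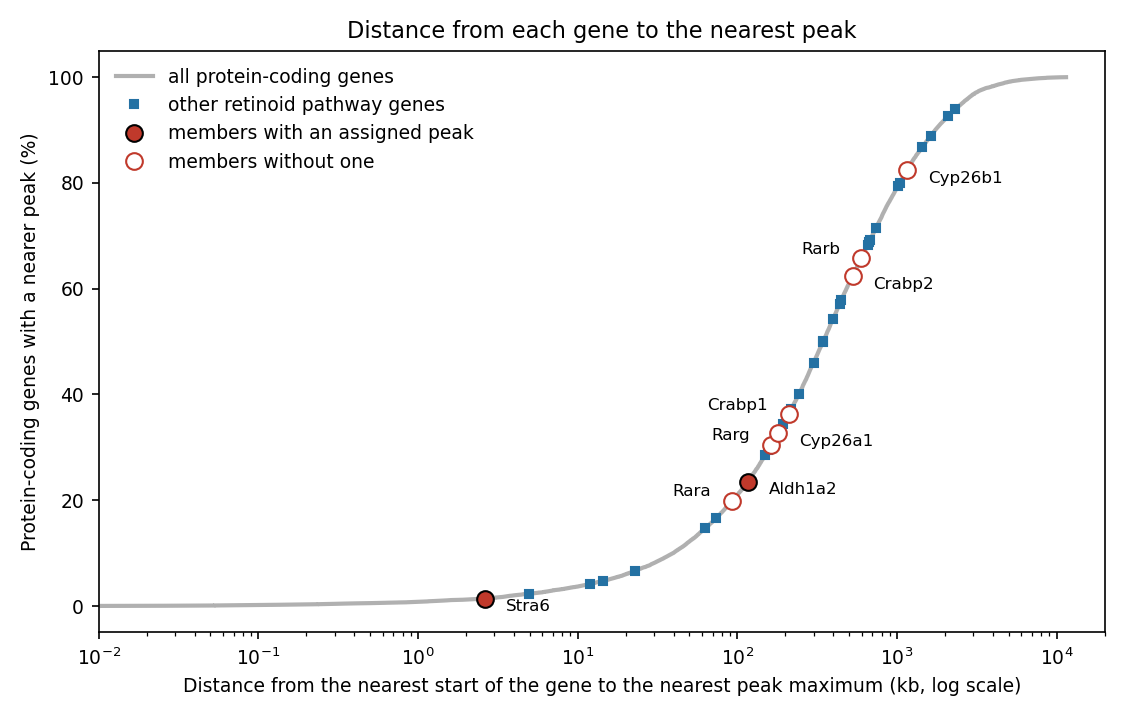
Distance from each gene's starts to the nearest peak maximum (kb, log scale) against the share of protein-coding genes with a nearer peak. Filled red circles are Stra6 and Aldh1a2, open red circles the 7 genes without an assigned peak, blue squares the other 28 pathway genes, and the grey curve all protein-coding genes. Stra6 lies at 1.41% and Cyp26b1 at 82.4%.

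Other genes of the pathway, 28 in all, gave 5 with an assigned peak (17.9%, beside the 8.16% of all protein-coding genes) and 7 peaks. This list was also chosen with earlier results known. The territories of these 5 genes, from 65.7 kb (Lrat) to 215.8 kb (Nrip1), were all above the median of 45.6 kb for protein-coding genes. Those of the 23 without a peak ran from 6.2 to 344.1 kb. By the nearest of all annotated genes, only Aldh1a3 and Nrip1 were left (7.14%), and noncoding genes had nearer starts at the others. Under that assignment 5.2% of all 37273 annotated genes had a peak, a share that includes noncoding genes, whereas the 28 are protein-coding. By role, 3 of 6 receptor coregulators, 1 of 2 further synthesis genes and 1 of 4 genes of vitamin A carriage and storage had a peak. None of the 3 RXR partners, 6 genes of retinol and retinal interconversion or 5 known retinoic acid targets did, and Cyp26c1 and Fabp5 had none.

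The coregulator genes held the strongest of these peaks. Ncoa3, a coactivator of nuclear receptors, had peaks of score 66.11 and 45.23 at 10.9 and 4.94 kb upstream, with noncoding genes nearer to both. Ncoa1, of the same coactivator family, had an intronic peak of score 57.54 at 92.6 kb from its start, near a 7SK RNA record and with no TAAT core in 200 bp. Nrip1, a corepressor gene induced by retinoic acid, had intronic peaks of score 46.04 and 31.31 at 14.4 and 18.7 kb past its start. At the stronger Nrip1 peak TAATTA overlapped the maximum, and AGGTCA lay on the minus strand beginning 23 bases after it. The weaker one also had AGGTCA. This half-site was in 2 of the 7 pathway windows, both of Nrip1, beside 16.9% of all peak windows.

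Among the enzymes, Aldh1a3, which like Aldh1a2 makes retinoic acid, had an intergenic peak 23.0 kb upstream also scored 30.51, with 18 tags and a background of 0. Unlike the Aldh1a2 window, its 200 bp held no TAAT core. Lrat, which stores retinol as esters, had a peak of score 35.06 at 11.9 kb upstream, inside the noncoding 4930564K09Rik, with TAATTA in the window. TAATTA was in 4 of the 7 pathway windows, beside 1 of 2 for Stra6 and Aldh1a2 and 34.2% overall. The single core TAAT was in 5 of the 7 (71.4%), beside 94.2% overall.

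The peaks adjacent in the list give the scale of these scores. Next above Stra6, with the same score of 91.8, came an intronic peak of Ssbp3, a gene of a single-stranded DNA-binding protein of LIM complexes, with 68 tags. Next below was an intergenic peak assigned to Spin1, of score 91.27. Next above Aldh1a2, again tied at 30.51, was an intronic peak of Kif23, a kinesin gene, also with 14 tags, and next below an intronic peak of Grip1 of score 30.24.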

How the data were processed

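Flag ChIP-seq libraries of mouse iMN-ESCs (2 with Dox, 2 without Dox) stand behind 1 peak list. Per the submitters' processing notes, BWA 0.5.8a and the build mm9 were used. For the peak caller, its threshold and any pooling, nothing was given in the sources used. ChIP score and background score are deposited values of no stated scale (unit score), and no source says which library gave the background score. ChIP tags are deposited whole-number counts per region. Of 2455 peaks, 1 on the mitochondrial genome was left out.

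Each maximum was assigned to the nearest start of any transcript of a protein-coding gene in GENCODE M1 (Ensembl 65), on the same build. Of 37 listed genes 36 matched by symbol and Bco1 by its older symbol Bcmo1. Motifs were searched in 200 bp of the genome on both strands. Peaks tied in score share the smallest rank number of the tie. Neighbours in rank within a tie follow the list's order. All 9 genes were to be named, with pathway genes that have a peak, hosts, nearer genes and neighbours in rank. Cyp26c1, Fabp5 and the genes assigned the peaks nearest to members without one were named after their values were seen. Some listed genes are not reported here. The genes and lists were chosen with earlier results of these data known. No test was made. Assignment and motif search were tested on simulated data. Python 3.11.15, pandas 2.3.3 and pysam 0.24.0 were used.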

Additional observations from a re-analysis of the deposited data

How the results depend on the processing

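The counts of retinoid genes with a peak and of their peaks were both 2 with all annotated genes, with starts of protein-coding transcripts, with 1 start per gene and with 1 peak per region (the last added after the data were seen). Both fell to 1 with a distance limit of 100 kb or 10 kb, among the 1227 or the 613 peaks of highest ChIP score (Stra6 in each case) and, added after the data were seen, by nearest gene body (Aldh1a2). The share of all protein-coding genes with a peak fell too, from 8.16% to 6.91% and 3.09% at the distance limits and 4.62% and 2.44% among the 1227 and the 613, and was 8.03% by gene body. The median score of the assigned peaks was 61.16, and 91.8 within 100 kb. The other pathway genes with a peak numbered 5, and 2 with all annotated genes (5.2% of all annotated genes, noncoding ones included). They numbered 1 within 10 kb (3.09% of all protein-coding genes), 3 among the 1227 (4.62%) and 2 among the 613 (2.44%). TAATTA was in 1 window at every width tried, and the shorter core TAAT in 2. In 200 bp these were in 34.2% and 94.2% of all peak windows, and no share over all peaks is given for the other widths. Both peaks passed score ratios of 5, 10 and 20, and 10 with 1 added to each score. The Stra6 ratio of 20.9 was only just above 20. At a ratio of 10, 94.6% of all peaks passed, and no share over all peaks is given for the other settings. No paired analysis was possible because the list gives no value per library, and for the same reason no library could be left out. Library depth is unknown, and 14 tags leave the Aldh1a2 peak imprecise.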
